A study of Drosophila melanogaster with 4 samples.

Results

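The genes described here encode short antibacterial peptides of Drosophila melanogaster, together with edin, a small secreted peptide whose gene is switched on by infection. They were DptB, Mtk, CecB, CecC, Def, AttD and edin, taken as the array probe sets that carry exactly 1 of these symbols. Of the 7 genes, 6 had such a probe set, 1 each, among 11981 genes named on the array. CecC had none and is not analysed here. The genes were selected on their log2 values on these same 4 arrays, so what follows describes the arrays and tests nothing.

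The study measured mRNA of whole male flies of the wild-type Canton-S strain on 4 arrays, 1 per group. The exposed groups spent 24 h in mesh-closed vials, on standard medium, inside a bottle with the vapour of benzene, of toluene or of formaldehyde. The control flies were not exposed. All were adults of 1 to 2 days; the labels state neither the vapour concentrations nor the number of flies per array. Toluene is benzene with a methyl group added, and formaldehyde is a small reactive aldehyde.

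Antimicrobial peptides are the secreted effectors of the fly's humoral immune response and are made mainly in the fat body, and also in the gut, other epithelia and blood cells. The Imd pathway starts when peptidoglycan recognition proteins bind the peptidoglycan typical of Gram-negative bacteria, and ends with cleavage of the NF-kB factor Relish, which enters the nucleus and turns on diptericin, cecropin and attacin genes. The Toll pathway, which responds to fungi and many Gram-positive bacteria, acts through the NF-kB factors Dif and Dorsal and turns on drosomycin and the bomanins. The metchnikowin gene Mtk can be driven by either pathway.

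Values are log2 probe set values, so 1 unit is 2-fold. Ratios give the first-named array over the second. A gene is called detected in a pair of arrays when its higher value reached the median of that array (6.42 to 6.46). The background of an array was the 95th percentile of its 20 control probe sets for transcripts that are neither spiked in nor from the fly (4.64 to 4.88). With 1 array per group no p-value or standard error exists. As a yardstick each ratio is set beside the middle 95% of the ratios of all detected genes between the same arrays. Differences in flies, RNA extraction and hybridisation enter that range along with those of exposure, and having 4 arrays limits the precision throughout.

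The labelled male sex was checked with marker genes. Of 6 genes for yolk and eggshell proteins, 3 were below background on every array, the yolk protein genes Yp1 and Yp2 and the eggshell gene Vm32E. The other 3 were above background, and of these the yolk protein gene Yp3 stood at 7.13 with benzene, 7.21 with toluene, 7.19 with formaldehyde and 7.11 in the control. All 8 accessory gland markers were above background on every array. The formaldehyde array differed from the control array in some of the manufacturer's control probe sets, with median log2 ratios of 0.76 for actin and 0.50 for 18S ribosomal RNA, but of -0.0017 for GAPDH and -0.019 for eIF-4a. The part of this difference in the formaldehyde results below was not tested.

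Benzene-exposed flies had the highest value of all 4 arrays for each of the 6 genes. DptB, Mtk, CecB and edin were at least 2-fold higher on the benzene than on the control array, that is 4 of the 5 detected genes, and the lowest of the 6 ratios was Def's. Among all 8134 detected genes 0.332% were at least 2-fold higher, so these 4 were among 27, and 0.0984% were at least 2-fold lower. Since the genes were picked for these values, nothing further is read from the count. In whole flies a higher level per cell and more cells that express a gene cannot be told apart.

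DptB encodes a diptericin, a glycine-rich peptide active against Gram-negative bacteria. It stood at 13.10 on the benzene array, 7.46 on the toluene array, 10.82 on the formaldehyde array and 8.92 on the control array. No neighbouring pair in this order, from benzene through formaldehyde and control to toluene, was closer than 1.46 log2 units, and each gap lay outside the middle 95% of genes. The log2 ratio to control was 4.19 for benzene (18.2-fold higher), -1.46 for toluene and 1.90 for formaldehyde (3.73-fold higher). These ranked 2nd from the highest for benzene and 2nd from the lowest for toluene.

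Mtk encodes metchnikowin, a proline-rich peptide active against fungi and Gram-positive bacteria. It stood at 13.49 on the benzene array, 6.41 on the toluene array, 12.14 on the formaldehyde array and 10.02 on the control array. The arrays fell in the same order as for DptB, again with every gap outside the middle 95% of genes. The log2 ratio to control was 3.47 for benzene (11.1-fold higher), -3.61 for toluene and 2.11 for formaldehyde (4.33-fold higher). The toluene value was just under that array's median of 6.44 and well above its background of 4.74. The span of Mtk over the 4 arrays, 7.08 log2 units, ranked 1st of 8250 genes detected on at least 1 array, and that of DptB, 5.64, ranked 2nd. The median span of these genes was 0.21.

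edin takes its name from its elevated expression during infection. It stood at 9.32 on the benzene array, 5.04 on the toluene array, 5.32 on the formaldehyde array and 4.39 on the control array. The control value was below the background of 4.88, so the benzene array was at least 21.9-fold higher than the control array. The toluene and formaldehyde values were above background but below the array medians, and edin was not detected in these comparisons. Against the control's background their folds came to at least 1.12 for toluene and at least 1.37 for formaldehyde. The toluene and formaldehyde arrays differed by 0.28, inside the middle 95% of dim genes, those under the detection filter. The measured log2 ratios to control, 0.65 for toluene and 0.93 for formaldehyde, lay outside the middle 95% of dim genes for those pairs, but rest on a control value below background. The span of 4.93 ranked 5th of 8250.

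**Figure D1:**
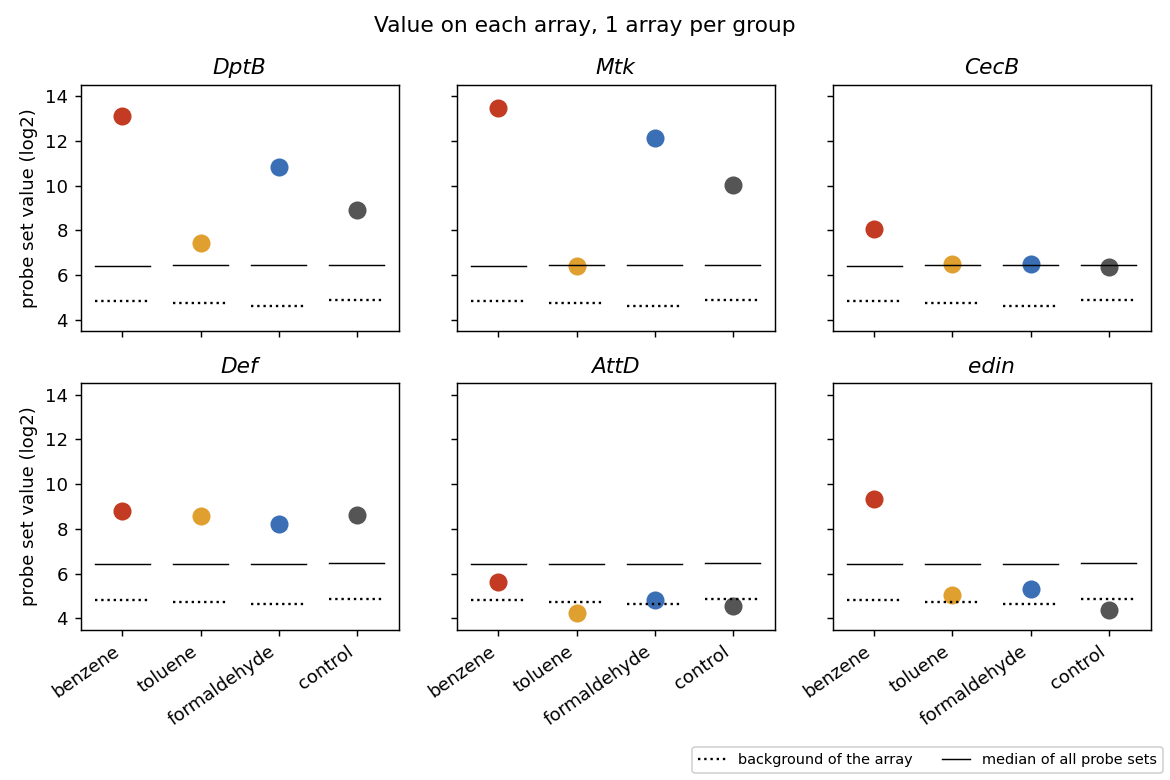
Log2 probe set value of each gene (vertical axis) on the benzene, toluene, formaldehyde and control arrays, 1 point per array; solid ticks mark the median of all probe sets of the array and dotted ticks its background. Benzene is highest in all 6 panels, Mtk and DptB are lowest with toluene at 6.41 and 7.46, Def spans 0.58 log2 units, and AttD lies under the median of every array.

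CecB encodes a cecropin, a helical peptide that disrupts bacterial membranes. It stood at 8.08 on the benzene array, 6.49 on the toluene array, 6.48 on the formaldehyde array and 6.35 on the control array. Only the benzene array differed from the rest by 2-fold, with a log2 ratio to control of 1.73 (3.32-fold higher). The other three spanned 0.14 log2 units, inside the middle 95% of genes. At 6.35 to 6.49 these values were close to the array medians, where a method of the RMA kind compresses ratios.

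Def encodes the insect defensin, a peptide active mainly against Gram-positive bacteria. It stood at 8.82 on the benzene array, 8.56 on the toluene array, 8.23 on the formaldehyde array and 8.62 on the control array. All were well above the array medians. The log2 ratios to control were 0.20 for benzene, -0.06 for toluene and -0.39 for formaldehyde. Each lay inside the middle 95% of genes, and so did each gap between neighbours in the order of the arrays. Formaldehyde and benzene, the ends of that order, differed by -0.58, which is outside the range of -0.29 to 0.48 for all genes.

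AttD encodes an attacin, a glycine-rich peptide family active against Gram-negative bacteria; unlike other attacins of the fly its product lacks an evident secretion signal. It stood at 5.64 on the benzene array, 4.26 on the toluene array, 4.82 on the formaldehyde array and 4.56 on the control array. The toluene and control values were below background, and the benzene value was below the array median. AttD was therefore not detected in any comparison. Its measured log2 ratio of benzene to control was 1.07, but against the control's background the benzene value was at least 1.69-fold higher. Among 3847 genes under the filter in this comparison, 2 (0.052%) were at least 2-fold higher as measured, and AttD is 1 of them. AttD was selected on these arrays, so nothing is read from this share. The formaldehyde and control values differed by 0.26, and toluene and control were both below background, so no fold is given for them.

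With toluene the group split. Mtk was 12.2-fold lower and DptB 2.74-fold lower than on the control array, and they ranked 1st and 2nd from the lowest of 8140 detected genes, of which 0.0369% were at least 2-fold lower and 0.246% at least 2-fold higher. CecB (log2 ratio 0.14) and Def (-0.06), the other two detected genes, were inside the middle 95% of genes. Over the 4 detected genes of the group the median log2 ratio was -0.76, against 0.01 for all detected genes. Over the 6 genes measured it was -0.18, which rests in part on AttD, below background on both arrays.

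With formaldehyde the same 2 genes stood out in the other direction. Mtk and DptB were at least 2-fold higher, where 1.08% of 8165 detected genes were (0.0367% were at least 2-fold lower), and ranked 20th and 27th from the highest. CecB (0.13) and Def (-0.39) were inside the middle 95%. The median over the 4 detected genes of the group was 1.02, against 0.01 for all detected genes. Over the 6 measured genes it was 0.60, which rests on AttD and edin. Neither was detected in this pair, and the control value of each was below background. For benzene the median over the 6 measured genes was 2.60, against -0.02 for all detected genes. The comparisons with the control share 1 control array, so a difference of that array enters all of them.

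The exposed arrays were also set against each other, which leaves the control out. On the toluene array, against the benzene array, Mtk was 135-fold lower (log2 ratio -7.08), DptB was lower by a log2 ratio of -5.64, edin by -4.28 and CecB by -1.59. These were 4 of the 5 detected genes, where 0.197% of 8126 genes were at least 2-fold lower, and Mtk, DptB and edin were the 3 lowest of all. Def was at -0.26, just beyond the lower end of the middle 95%, -0.24. AttD, under the filter, was at least 1.86-fold lower with toluene. Exposure lasted 24 h for both compounds, the doses are not given, and no interval of a difference can be given with 1 array each.

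On the formaldehyde array, against the benzene array, the same 4 genes were at least 2-fold lower, where 0.184% of 8150 genes were. edin was 16.0-fold lower and ranked lowest of all genes, DptB was 4.88-fold, CecB 3.03-fold and Mtk 2.56-fold lower. Thus edin differed most and Mtk least of these 4. AttD was at -0.81. Against the toluene array, formaldehyde was 52.8-fold higher for Mtk, the highest of 8145 genes, and 10.2-fold higher for DptB, where 0.798% of genes were at least 2-fold higher. CecB differed by -0.01 between these arrays and Def by -0.32.

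**Figure D2:**
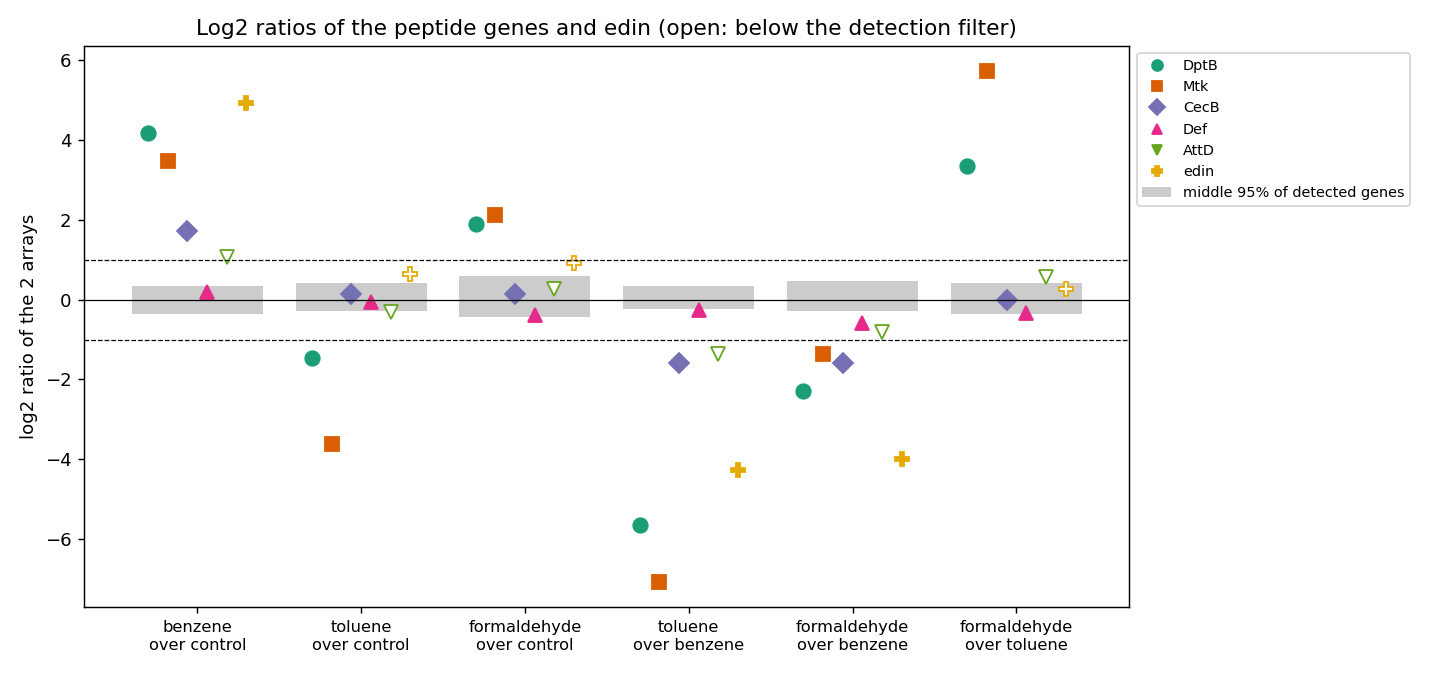
Log2 ratio of each gene (vertical axis) in each of the 6 pairs of arrays (horizontal axis); grey bars span the middle 95% of detected genes, dashed lines mark 2-fold, and open symbols are genes under the detection filter. Mtk and DptB leave the grey bar in every pair, CecB in the 3 pairs that hold the benzene array, and the ratio of edin to control is plotted as measured although the control value is below background.

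The order of the 4 arrays from high to low was benzene, formaldehyde, control, toluene for DptB and Mtk. AttD also had benzene first. Its toluene and control values were below background and its formaldehyde value was below the control array's background, so no order is given among these. The order was benzene, formaldehyde, toluene, control for edin, benzene, toluene, formaldehyde, control for CecB, and benzene, control, toluene, formaldehyde for Def. Likeness of pattern was measured as the Euclidean distance between the 4 log2 values of 2 genes, each centred on its own mean. The values were not scaled, so this distance also grows with the span of a gene. DptB and Mtk were 1.85 apart. CecB and AttD were 0.64 apart and Mtk and Def, the most unlike pair, 5.32.

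The other genes whose 4 values were most like those of each peptide gene were taken from 140 named genes with a span of at least 1 log2 unit. Closest to DptB (distance 1.90) and to edin (0.86) was PGRP-SB1, which encodes a secreted peptidoglycan-cleaving amidase. It stood at 12.87 with benzene, 9.05 with toluene, 9.80 with formaldehyde and 9.04 in the control. Its log2 ratio of toluene to control was 0.014, against -1.46 for DptB.

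PGRP-LB, for an amidase that removes peptidoglycan, and pirk, which encodes an inhibitor of Imd receptor signalling, were next for DptB (3.14 and 3.23). Both also stood close to CecB (0.27 and 0.21) and to AttD (0.38 and 0.43). Nearest to CecB was CG12057 (0.14), at 8.06, 6.65, 6.57 and 6.49 in the order benzene, toluene, formaldehyde, control. Nearest to AttD, whose distances include its values below background, was Ect3 (0.37). After PGRP-SB1, edin was nearest to Diedel (2.39), for a secreted immune regulator, and CG12057 (2.60).

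Mtk had the widest span of all genes, and its distances are large in part for that reason. Its nearest named genes were PGRP-SB1 at 3.66, BomS5 at 3.97 and BomBc3 at 4.29. The last 2 encode bomanins, short immune peptides. Both were at least 2-fold higher with formaldehyde than in the control, as Mtk was, while their toluene to control ratios, -0.24 and -0.20 on the log2 scale, lay inside the middle 95% of genes. BomS5 stood at 11.11 with benzene, 9.59 with toluene, 12.72 with formaldehyde and 9.84 in the control. Its highest value was with formaldehyde and that of Mtk with benzene, and the log2 ratio of toluene to control was -3.61 for Mtk.

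**Figure D3:**
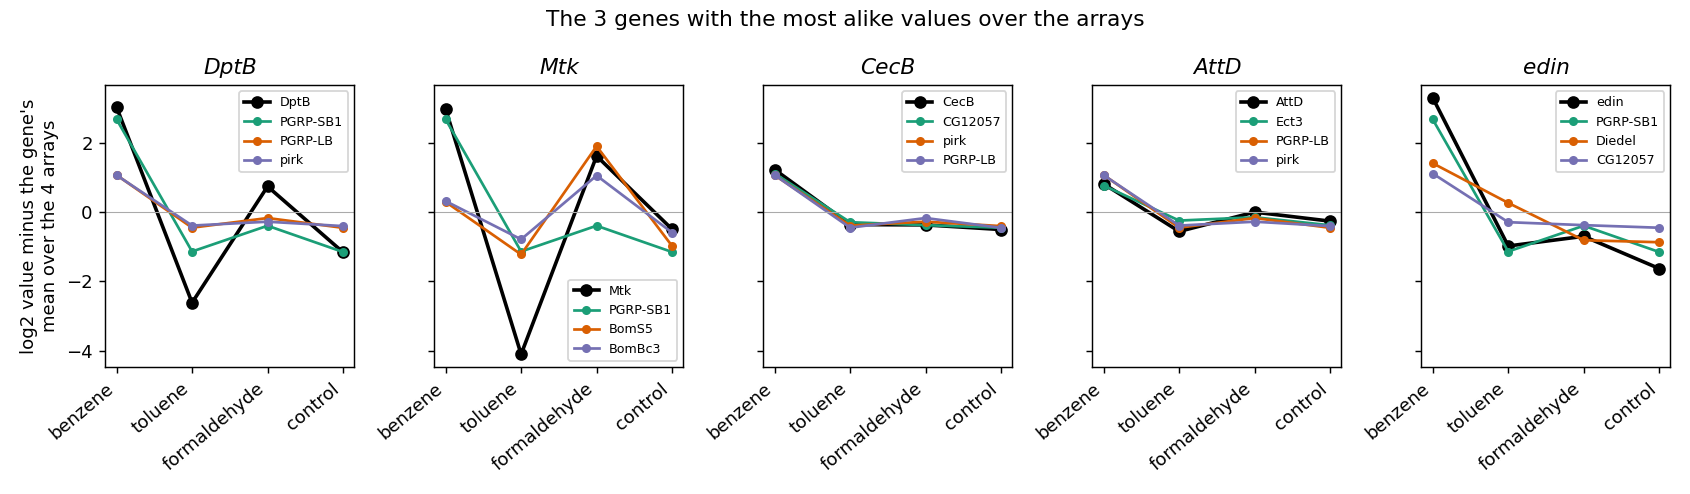
Log2 value minus the gene's own mean over the 4 arrays (vertical axis) for 5 peptide genes (black) and the 3 named genes closest to each (colours); lines join the arrays to guide the eye. CecB and AttD, with narrower spans, have companions at distances of 0.14 to 0.43, and these distances grow with the span. The toluene value of Mtk, and to a lesser degree that of DptB, is matched by no other gene shown.

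The pathways that drive these genes were described from gene lists. Of the Imd receptors and signalling genes, 11 of 12 on the array were detected against control. Only Rel, which encodes Relish, was at least 2-fold higher with benzene, where 0.332% of all detected genes were. The list median was 0.01, against -0.02 for all genes. Rel stood at 10.61 with benzene, 9.46 with toluene, 10.26 with formaldehyde and 9.29 in the control, log2 ratios of 1.32, 0.17 and 0.97 in the order benzene, toluene, formaldehyde. Its order was thus benzene, formaldehyde, toluene, control, as for edin and also for PGRP-SB1, PGRP-LB and pirk. Rel's toluene to control ratio lay inside the middle 95% of genes. The gap of edin between formaldehyde and toluene lay inside that of dim genes, so the shared order rests on small differences.

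Of 10 detected genes listed as Imd negative regulators, 4 were at least 2-fold higher with benzene, 0 with toluene and 0 with formaldehyde. None was lower. Over all detected genes the shares at least 2-fold higher were 0.332%, 0.246% and 1.08% in the same order. A count of 0 among 10 genes is near these shares and is not read as a result. The 4 with benzene were PGRP-SB1 (3.83), PGRP-LB (1.52), pirk (1.47) and PGRP-SC2 (1.04), the last for another peptidoglycan amidase. Their place here is that of the list, and a regulatory role, including that of PGRP-SB1, was not tested. The list medians were 0.45 for benzene, 0.01 for toluene and 0.12 for formaldehyde. Set directly against benzene, 3 of 10 were at least 2-fold lower with toluene and 3 of 10 with formaldehyde. Over all detected genes these shares were 0.197% and 0.184%.

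Of 14 detected Toll pathway genes, 0 were past 2-fold with benzene or toluene and 1 with formaldehyde. This was SPE, for the protease that processes the Toll ligand, with a log2 ratio of 1.31. Over all detected genes 0.332% (benzene), 0.246% (toluene) and 1.08% (formaldehyde) were at least 2-fold higher. The list medians were 0.18, 0.20 and 0.33 in the order benzene, toluene, formaldehyde.

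Of 8 detected bomanin genes, 1 was at least 2-fold higher with benzene, 0 with toluene and 4 with formaldehyde, with medians of 0.33, -0.03 and 0.98. Over all detected genes the shares at least 2-fold higher were 0.332%, 0.246% and 1.08% in the same order. BomS5 (2.88), BomBc3 (1.65), BomT3 (1.22) and BomS2 (1.11) were the 4 for formaldehyde, and BomS5 (1.27) the 1 for benzene. Of the other antimicrobial peptide genes, 2 of 3 on the array were detected, and 1 of them was past 2-fold, with formaldehyde only (log2 ratio 2.18). This was the antifungal drosomycin gene Drs, which stood at 11.84 with benzene, 10.83 with toluene, 13.29 with formaldehyde and 11.11 in the control. Drs and each of the 8 bomanins, past 2-fold or not, were highest with formaldehyde. The antimicrobial peptide gene detected beside Drs was highest with benzene, at 13.35 against 13.22 with formaldehyde. The 6 peptide genes described here were selected on their values on these arrays. Their highest values with benzene are therefore not read as a contrast with Drs and the bomanins. Of these 6, Def had a log2 ratio of benzene to control of only 0.20, and AttD was not detected.

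Of 6 drosomycin-like genes, 3 were detected with formaldehyde and 1, Drsl2, was past 2-fold there (4.28), with 0 past 2-fold in the other exposures. Of 4 detected genes of the JAK/STAT pathway and its stress peptides, TotC was at least 2-fold higher in every exposure (2.26, 2.17 and 2.07). Diedel was so with benzene (2.28) and toluene (1.14). The shares of all detected genes at least 2-fold higher were 0.332% with benzene, 0.246% with toluene and 1.08% with formaldehyde.

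**Figure D4:**
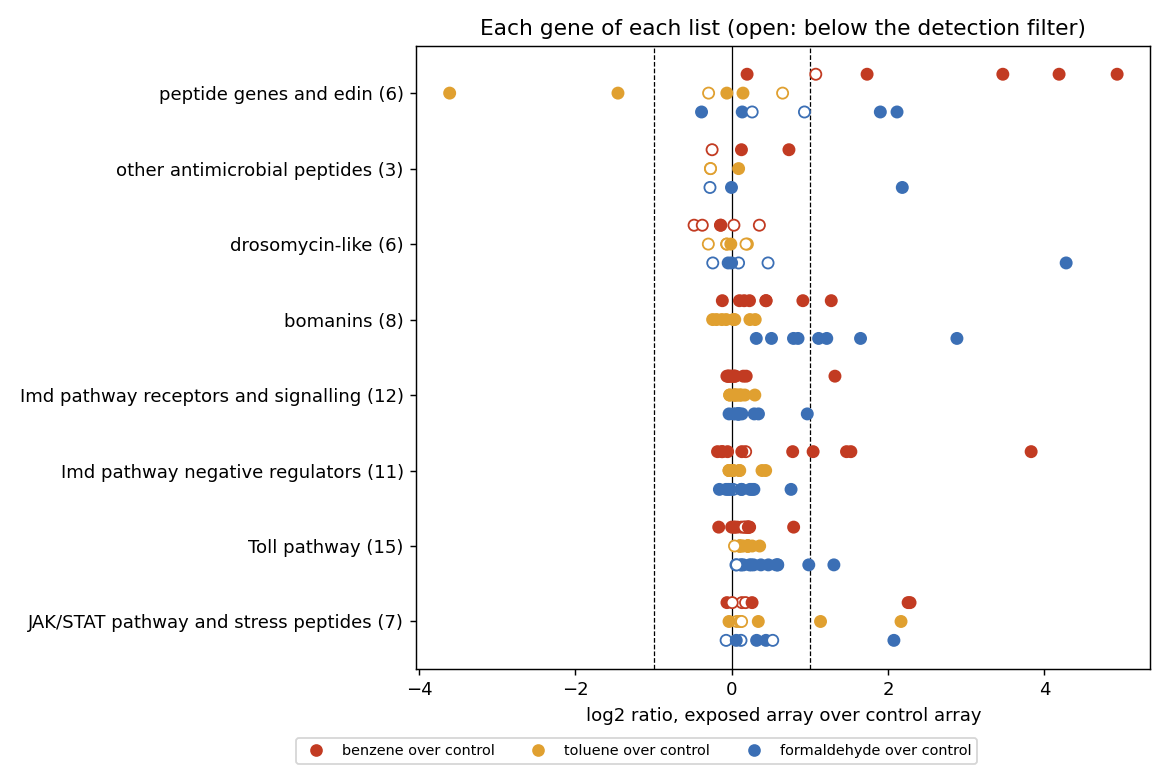
Log2 ratio of each exposed array to the control array (horizontal axis) for every gene of each list with a probe set (rows, number of genes in brackets); colours mark the exposure, open points are under the detection filter and dashed lines mark 2-fold. Values below -1 occur for 2 peptide genes with toluene, DptB and Mtk, and for no gene of the other lists in any exposure.

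Markers of tissues that make these peptides were set beside them. Of 5 fat body markers, 1 was at least 2-fold higher with benzene (Fbp2, 1.03), 4 with toluene (Fbp2, 3.20; Fbp1, 3.13; Lsp2, 1.63; fit, 1.36) and 3 with formaldehyde (Fbp1, 2.49; Fbp2, 2.42; Lsp2, 1.02). Their summed level was 13.58 with benzene, 14.27 with toluene, 13.85 with formaldehyde and 13.45 in the control, as log2 of the sum. All 5 fat body markers were highest on the toluene array, where DptB and Mtk were lowest. The brightest of them, apolpp, moved little, with log2 ratios to control of 0.07 for benzene, 0.24 for toluene and 0.02 for formaldehyde. With formaldehyde fit was at -0.35. Of 9 hemocyte (blood cell) markers 6 were detected against control, and 0 of these were past 2-fold. The summed level of all 9 was 11.15, 11.12, 11.29 and 11.02 in the same order of arrays, and 2 were below background on every array, He and PPO1. Midgut markers summed to 15.45, 15.18, 15.04 and 15.35, with none of 9 below background. Against control, 8 of these were detected with benzene, 8 with toluene and 9 with formaldehyde. At least 2-fold higher were 1 with benzene, the mannosidase gene LManVI (log2 ratio 1.497), 0 with toluene, and 1 with formaldehyde, the lysozyme gene LysX (2.85). LManVI stood at 8.96 with benzene, 7.97 with toluene, 7.997 with formaldehyde and 7.46 in the control, so it too was highest on the benzene array. Of 7 detected testis markers 0 were past 2-fold, with medians to control of -0.24 for benzene, -0.18 for toluene and -0.36 for formaldehyde, and for 8 accessory gland markers these were -0.08, -0.11 and -0.20. Over all detected genes the shares at least 2-fold higher were 0.332% with benzene, 0.246% with toluene and 1.08% with formaldehyde. The shares at least 2-fold lower were 0.0984%, 0.0369% and 0.0367% in the same order. Counts of 0 in marker lists this small are near these shares and are not read as a result. The part of these tissues in the values of the peptide genes was not tested.

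Genes beside the peptide genes on the chromosomes were looked up after the values were seen. The 6 measured genes have 12 adjacent protein-coding genes, of which 8 had a probe set with a single symbol and 3 were detected on at least 1 array. Their spans over the 4 arrays ran from 0.10 to 0.54 log2 units, and 0 reached 1. Of all 8250 genes detected on at least 1 array, 144 had a span of at least 1. A count of 0 among 8 genes is near that share and is not read as a result. The widest span was that of CG43109, beside DptB and under the detection filter, at 5.45 with benzene, 5.99 with toluene, 5.82 with formaldehyde and 5.62 in the control. Stacl, beside Mtk, had a span of 0.10, magu, beside Def, one of 0.16, and Oatp74D, beside edin, one of 0.13. The genes adjacent to CecB, CecA2 and CecC, and DptA beside DptB, had no such probe set and were not analysed here.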

How the data were processed

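The 4 arrays were deposited as a single table of log2 values for 18952 probe sets, 183 of them array controls. Per the labels' protocols, 300 ng of total RNA was amplified and biotin-labelled with a kit that primes at the 3' end. Per the submitters' processing notes, Affymetrix Expression Console 1.1, RMA and MAS5 were used, in roles not stated. Which of these gave the table is unknown, but its near-equal quantiles are those of RMA output, which removes overall differences between arrays and compresses ratios of dim probe sets. The values were used as deposited.

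Groups came from the sample titles. Gene names came from the platform annotation: 13646 probe sets had 1 symbol, 402 several and 4721 none. RefSeq's Release 6 gene table matched 13543 of them, changed 0 symbols and gave adjacent genes; no coordinates are printed. For a gene with several probe sets the brightest on average was taken, giving 11981 genes. Each measured member had 1 probe set.

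Ratios are differences of log2 values, called at 1 log2 unit in detected genes (Python 3.11.15, numpy 2.4.6, pandas 2.3.3). On simulated arrays 200 of 200 changed genes were recovered and 0 others called. The changes were planted in bright genes only, well past the cutoff and with little noise. This checks the code and not the accuracy of calls on the real arrays. The members and lists were chosen with earlier results of these data known. Named are all members, the 3 genes most like each member with a span of at least 1 log2 unit, and genes of the pathway lists past 2-fold in any exposure. Tissue markers and adjacent genes were chosen after their values were seen. Promoter and protein sequences were not used here. Alternatives were 2 rescalings, 2 filters and a floor at background.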

Additional observations from a re-analysis of the deposited data

Results flagged for a closer look

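DptB and Mtk moved by at least 2-fold in opposite directions under different exposures. DptB had a log2 ratio to control of 4.19 with benzene and 1.90 with formaldehyde, but -1.46 with toluene. Mtk had one of 3.47 with benzene and 2.11 with formaldehyde, but -3.61 with toluene. With 1 array per group this difference between exposures was not tested, and all ratios share 1 control array. Toluene was also lowest among the exposed arrays alone. Ratios to 1 shared control keep the order of the exposed values, so this is no check on the control array.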

How the results depend on the processing

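Shifting the arrays to a common median or quantile normalizing them moved each of the 36 ratios of the 6 genes by at most 0.05 log2 units, with 0 changes of sign, and left every count of these genes past 2-fold as it was. Without the filter on low values AttD joined, giving 5 genes for benzene over control and 5 for toluene over benzene, and with the filter at the 75th percentile CecB dropped out, giving 3 for both of these and 3 in place of 4 for formaldehyde over benzene. Raising low values to background moved edin over control to 4.45 (benzene), 0.17 (toluene) and 0.45 (formaldehyde). It moved AttD over control to 0.76, -0.14 and -0.054 in the same order, to -0.90 for toluene over benzene and to 0.083 for formaldehyde over toluene. The floor itself sets these values, since AttD was below background on 2 arrays and edin on 1. The count of pathway list genes past 2-fold with toluene was 2, and 1 with the stricter filter, which tests fewer genes. Under that filter the genes past 2-fold upward with toluene numbered 13 in place of 20 over the whole array, and those past 2-fold downward with formaldehyde 1 in place of 3. No paired analysis was possible because each group has 1 array. Replicates could not be left out for the same reason. Each member had 1 probe set, so no other probe set could be tried.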
